A study of Mus musculus with 64 samples.

Results

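This account covers the genes of the mouse major histocompatibility complex (MHC, named H2 in the mouse) and the genes that load its molecules with peptide, in the livers of mice that differed in the fat-absorption gene Mogat2 and in diet. The members were all gene names beginning with H2- (44 names) together with B2m, Tap1, Tap2, Tapbp, Psmb8, Psmb9, Cd74 and Ciita, which made 52 of the 53008 gene names counted. Of these, 31 are class I heavy chain genes or pseudogenes and 6 serve class I. Another 12 encode class II chains, 2 serve class II, and 1 (H2-Ke6) carries an H2 name without being an MHC molecule. The 30 members with a mean of at least 0.5 CPM (counts relative to the library total) over the 16 libraries are reported, and all 30 also passed the filter for testing: 15 class I heavy chains, 6 class I machinery genes, 7 class II chains and 2 class II machinery genes.

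A class I molecule is a heavy chain joined to the light chain beta-2 microglobulin, and it shows peptides from inside the cell to CD8 T cells. Those peptides are cut by the proteasome, which can carry the inducible subunits Psmb8 and Psmb9, are moved into the endoplasmic reticulum by the Tap1 and Tap2 transporter, and are loaded with the help of tapasin, the product of Tapbp. A class II molecule is an alpha and a beta chain that show peptides from engulfed material to CD4 T cells, guided by the invariant chain Cd74 and the peptide editor H2-DM and switched on by the transactivator Ciita. Nearly all cells make class I, while class II is made mainly by macrophages, dendritic cells and B cells, and interferon gamma raises both.

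The groups, with 4 libraries each, were HuMgat2 HFD, HuMgat2 chow, WT HFD and WT chow, where HFD is a diet high in fat and WT is wild type, all sampled after 16 weeks on the diet. HuMgat2 mice are humanized and express human MOGAT2, an enzyme that makes diacylglycerol from monoacylglycerol, and WT mice carry the mouse gene. Strain, sex, age and the promoter of the human gene are not given in the sources used here, so a difference in strain cannot be told apart from the genotype. Total RNA of liver tissue, depleted of ribosomal RNA, was sequenced, and read pairs were counted per gene. The libraries held 12422647 to 25812129 counts. The mouse gene Mogat2 had 0 to 2 counts per library in HuMgat2 on HFD, 0 to 1 in HuMgat2 on chow, 2 to 12 in WT on HFD and 0 to 2 in WT on chow, too few to check the genotype labels. For the tissue label, 9 hepatocyte markers summed to 50982 CPM or more in every library. WT HFD library 4 stood apart: it was the shallowest, albumin took 0.850% of its counts against 3.26% to 6.02% elsewhere, and several results rest on it.

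Levels are CPM scaled by TMM, given in library order within each group (libraries 9 to 12 for HuMgat2 HFD, 13 to 16 for HuMgat2 chow, 1 to 4 for WT HFD and 5 to 8 for WT chow). The words rose, fell and called are kept for genes with an adjusted p below 0.05 by edgeR's quasi-likelihood fit, which covered 17318 genes. In bulk liver, fewer cells of a type and less RNA per cell cannot be told apart.

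Most members lie close together: 49 of the 52 are on chromosome 17, between 34138306 and 37794443 of GRCm39. Promoters from RefSeq (build GRCm38.p6, 250 bases before to 50 after the annotated start) were matched to 21 of the 30 reported members. They were searched on both strands for 5 short motifs known from MHC promoters: GAAANNGAA (core of the interferon-stimulated response element), GGGATTCCC (the kappa B site of the class I enhancer), TGACGCG (core of a cyclic AMP element), AGNNACNGA (core of the class II X box) and CTGATTGG (the Y box). Of all 32851 promoters in the table, 8.56%, 0.353%, 1.91%, 17.7% and 4.1% held these motifs, in that order. Among the 15 class I and class I machinery genes with a promoter, 8 held the Y box, 4 the kappa B site, 3 the interferon core as spelled here, 3 the X box core and 2 the cyclic AMP core. The Y box matches of Tap1 and Psmb9 are the same site, in a stretch of DNA that both windows cover. Among the 6 class II genes with a promoter, 3 held the X box core and 2 the Y box. A match describes these letters only. Other spellings of each element were not searched. The lack of a match therefore does not mean that a promoter lacks the element, and it says nothing about a factor.

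The 7 promoters here are shown as examples of each kind of member: the abundant heavy chains H2-K1 and H2-Q10, the called heavy chains H2-Q7 and H2-T22, the called transporter gene Tap1, and the class II chains H2-Aa and H2-Eb1. Their positions are H2-K1 (chr17:34000298-34000597, minus strand), H2-Q7 (chr17:35438905-35439204, plus strand), H2-Q10 (chr17:35469839-35470138, plus strand), H2-T22 (chr17:36042693-36042992, minus strand), Tap1 (chr17:34187306-34187605, plus strand), H2-Aa (chr17:34287774-34288073, minus strand) and H2-Eb1 (chr17:34305617-34305916, plus strand). Each is written 5′ to 3′ on the strand of its gene, and capitals mark any of the 5 motifs, read on either strand. Each holds 300 bases, and for H2-K1 the first of the windows in the table is given.
H2-K1: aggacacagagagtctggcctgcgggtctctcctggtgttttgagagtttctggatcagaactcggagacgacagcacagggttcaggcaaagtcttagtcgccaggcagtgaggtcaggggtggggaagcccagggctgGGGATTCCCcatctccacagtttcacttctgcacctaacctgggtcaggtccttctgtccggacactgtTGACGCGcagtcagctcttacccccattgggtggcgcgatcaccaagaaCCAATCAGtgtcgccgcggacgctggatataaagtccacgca
H2-Q7: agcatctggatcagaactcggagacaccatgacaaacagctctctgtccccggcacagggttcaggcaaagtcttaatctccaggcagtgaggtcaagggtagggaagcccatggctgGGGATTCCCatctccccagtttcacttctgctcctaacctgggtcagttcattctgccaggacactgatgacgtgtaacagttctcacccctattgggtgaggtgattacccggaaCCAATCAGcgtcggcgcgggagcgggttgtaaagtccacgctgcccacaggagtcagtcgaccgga
H2-Q10: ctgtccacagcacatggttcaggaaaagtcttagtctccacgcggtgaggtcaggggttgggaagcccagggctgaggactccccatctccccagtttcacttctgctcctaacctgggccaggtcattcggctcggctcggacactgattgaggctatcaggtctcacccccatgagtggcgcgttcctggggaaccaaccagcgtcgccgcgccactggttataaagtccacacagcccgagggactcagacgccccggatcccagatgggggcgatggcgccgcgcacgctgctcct
H2-T22: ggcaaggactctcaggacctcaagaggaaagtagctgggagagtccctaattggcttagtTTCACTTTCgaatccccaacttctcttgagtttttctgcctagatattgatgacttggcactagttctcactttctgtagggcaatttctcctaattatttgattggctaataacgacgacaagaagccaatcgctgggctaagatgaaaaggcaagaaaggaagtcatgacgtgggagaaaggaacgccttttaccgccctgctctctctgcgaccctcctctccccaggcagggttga
Tap1: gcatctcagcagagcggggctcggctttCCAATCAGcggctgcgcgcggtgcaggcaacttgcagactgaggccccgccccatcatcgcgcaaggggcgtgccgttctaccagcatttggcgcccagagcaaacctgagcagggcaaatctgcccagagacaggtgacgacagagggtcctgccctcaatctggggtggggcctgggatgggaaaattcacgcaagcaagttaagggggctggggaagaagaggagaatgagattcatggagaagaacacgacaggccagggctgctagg
H2-Aa: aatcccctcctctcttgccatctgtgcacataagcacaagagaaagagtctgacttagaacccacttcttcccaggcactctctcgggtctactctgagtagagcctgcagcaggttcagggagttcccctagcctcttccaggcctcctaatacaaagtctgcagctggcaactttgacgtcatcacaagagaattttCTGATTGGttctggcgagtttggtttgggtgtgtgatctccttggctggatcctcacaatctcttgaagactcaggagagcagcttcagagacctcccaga
H2-Eb1: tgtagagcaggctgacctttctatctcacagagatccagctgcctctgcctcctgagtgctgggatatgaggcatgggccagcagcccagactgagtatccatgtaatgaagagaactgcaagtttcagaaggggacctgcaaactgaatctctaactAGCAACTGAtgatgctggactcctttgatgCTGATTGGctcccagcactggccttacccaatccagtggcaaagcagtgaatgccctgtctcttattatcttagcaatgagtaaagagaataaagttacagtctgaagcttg
Counting the annotated start as 0, H2-K1 and H2-Q7 both held the kappa B site, from -110 and from -132, while the window of H2-Q10, the most abundant heavy chain in these livers, held none of the 5 motifs as spelled here. H2-D1 and H2-Q6 were the other members with the kappa B site. The windows of Tap1 and Psmb9 are the same stretch of DNA read in opposite directions: they share 275 bases, and the annotated starts of both genes lie 226 bases apart. The window of H2-T22 held the interferon core that was searched for, read on the other strand, from -190. The promoter of H2-Eb1 held an X box core from -92 and a Y box from -62, and that of H2-Aa a Y box from -51.

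Compared per kilobase of exon (RPKM, mean of 16 libraries), the light chain and the most abundant class I heavy chains led, and class II genes lay among the other class I genes. B2m, the light chain, led at 1658 RPKM and lay above every other member in all 16 libraries. H2-Q10, which encodes a class I molecule that mouse liver secretes, followed at 228 RPKM, and the classical heavy chains H2-K1 and H2-D1 at 175 and 114 RPKM. H2-Q10 exceeded H2-K1 in 13 of 16 libraries and H2-K1 exceeded H2-D1 in all 16, although the ranges of both pairs overlapped across libraries. The invariant chain Cd74 came next at 48.8 RPKM, but exceeded the nonclassical heavy chain H2-T23 (29.3 RPKM) in only 11 libraries. The class II chains H2-Eb1, H2-Ab1 and H2-Aa averaged 11.7, 11.4 and 6.70 RPKM, and H2-Eb1 exceeded H2-Ab1 in 9 of 16 libraries, so their order was not settled. Lowest of the 30 were H2-Ob, a chain of the H2-O molecule that restrains H2-DM, at 0.137 RPKM and Ciita at 0.483 RPKM.

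Just inside the minimum was H2-Ob with a mean of 0.735 CPM of the unscaled totals, and just outside were H2-M2 (0.496), H2-Ke6 (0.490) and H2-Bl (0.436). H2-M2, a class I heavy chain gene, owed its mean to a single library: it had 5.56 CPM in WT HFD library 4 and at most 0.488 CPM in the other 15. In all, 22 members fell below the minimum and 7 of them had 0 counts in every library, among them H2-Ea, the alpha chain that pairs with H2-Eb1. Without WT HFD library 4, 31 members would have passed.

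Summed over all 31 heavy chain genes, class I came to 2218, 2207, 2134 and 2132 CPM in HuMgat2 HFD livers, 1848, 1963, 1905 and 2013 CPM in HuMgat2 chow livers, 2199, 2078, 2025 and 2902 CPM in WT HFD livers and 1827, 1747, 1901 and 1772 CPM in WT chow livers. Within each genotype all 4 HFD livers lay above all 4 chow livers, except that on unscaled CPM the WT ranges overlapped (1929.7 to 2940.2 CPM on HFD and 1666 to 1992 CPM on chow). Summed without H2-Q10, the scaled ranges overlapped in both genotypes. Without that gene, HuMgat2 livers had 988 to 1061 CPM on HFD and 897 to 1006 CPM on chow. WT livers had 1004 to 1891 CPM on HFD and 813 to 1110 CPM on chow. The 12 class II chain genes summed to 58.6, 66.7, 50.2 and 56.9 CPM in HuMgat2 HFD livers, 30.0, 56.4, 31.0 and 33.4 CPM in HuMgat2 chow livers, 76.9, 73.6, 39.5 and 503 CPM in WT HFD livers and 63.3, 29.0, 85.4 and 71.6 CPM in WT chow livers. These class II sums overlapped between every pair of groups, although 3 of the 4 HuMgat2 chow livers lay below every HuMgat2 HFD liver, and WT HFD library 4 exceeded every other library. As a share of the class I sum, class II made 2.35% to 3.02% in HuMgat2 HFD livers, 1.62% to 2.87% in HuMgat2 chow livers and 1.66% to 4.49% in WT chow livers. In WT HFD livers it made 3.50%, 3.54%, 1.95% and, in library 4, 17.3%. H2-Q10 alone took 50.2% to 55.2% of the class I sum in HuMgat2 HFD livers, 50.1% to 54.3% in HuMgat2 chow livers, 34.8% to 50.4% in WT HFD livers and 41.6% to 53.5% in WT chow livers, with the lowest share in WT HFD library 4.

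**Figure D1:**
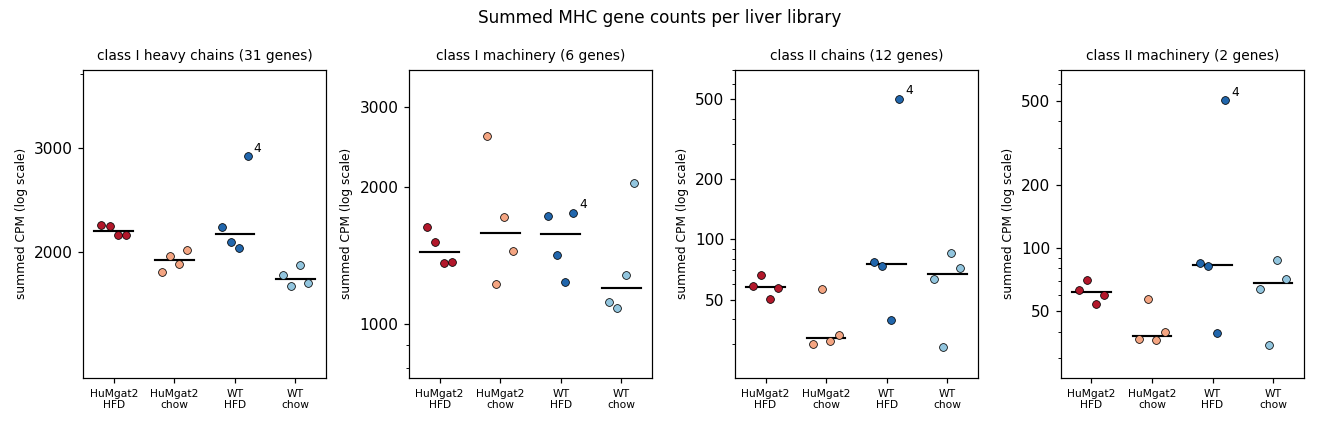
Summed CPM per library (log scale) of 31 class I heavy chain genes, 6 class I machinery genes, 12 class II chain genes and 2 class II machinery genes, with groups from left to right HuMgat2 HFD, HuMgat2 chow, WT HFD and WT chow, 1 point per library and a line at the group median. WT HFD library 4 (marked 4) has 502.7 CPM of class II chains, above the other 15 libraries, which span 29.0 to 85.4 CPM.

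The 9 reported class II genes were all highest in WT HFD library 4. H2-Ab1 stood at 18.3, 21.2, 18.1 and 18.9 CPM in HuMgat2 HFD livers and 9.81, 19.4, 9.08 and 9.55 CPM in HuMgat2 chow livers. For H2-Ab1, WT livers gave 25.5, 26.1, 12.4 and 170.2 CPM on HFD and 19.3, 10.1, 26.2 and 27.3 CPM on chow. H2-Ab1 encodes the beta chain of the H2-A molecule, and WT HFD library 4 lay far above the other 15 libraries. H2-Aa had 17.6, 19.5, 14.0 and 17.4 CPM in HuMgat2 HFD livers and 8.91, 17.3, 10.3 and 11.3 CPM in HuMgat2 chow livers. For H2-Aa, WT livers gave 25.1, 22.9, 12.7 and 152 CPM on HFD and 21.4, 8.70, 27.1 and 20.6 CPM on chow. H2-Aa, its alpha chain, was likewise highest in library 4 and lowest of WT HFD in library 3. H2-Eb1 was at 15.1, 18.7, 11.2 and 14.6 CPM in HuMgat2 HFD livers and 6.52, 13.1, 7.73 and 8.29 CPM in HuMgat2 chow livers. For H2-Eb1, WT livers gave 17.6, 17.2, 9.40 and 138 CPM on HFD and 16.5, 6.43, 24.4 and 15.9 CPM on chow. H2-Aa, H2-Ab1 and H2-Eb1 are chains of the molecules that hold the peptide, though H2-Ea, the partner of H2-Eb1, had 0 counts in every library. All 3 measured chains were about an order of magnitude apart within WT HFD, where library 4 was high and library 3 low, so that WT HFD overlapped every other group. Cd74 reached 61.6, 67.9, 52.5 and 57.2 CPM in HuMgat2 HFD livers and 35.8, 55.3, 33.9 and 37.5 CPM in HuMgat2 chow livers. For Cd74, WT livers gave 81.3, 76.9, 36.0 and 471 CPM on HFD and 60.9, 31.6, 84.4 and 68.8 CPM on chow. In Cd74 the HuMgat2 HFD livers lay inside the WT HFD range. Ciita measured 1.67, 2.70, 1.70 and 2.60 CPM in HuMgat2 HFD livers and 1.29, 2.28, 2.52 and 2.15 CPM in HuMgat2 chow livers. For Ciita, WT livers gave 3.42, 5.09, 3.32 and 32.5 CPM on HFD and 3.26, 2.78, 3.35 and 2.82 CPM on chow. Cd74 and Ciita were likewise highest in library 4. Library 4 was 9.33-fold above the mean of the other 3 WT HFD libraries in H2-Eb1, 8.24-fold in Ciita, 7.97-fold in H2-Ab1, 7.52-fold in H2-Aa and 7.27-fold in Cd74. For the 15 class I heavy chains this ratio had a median of 1.63 and ran from 1.04 in H2-Q10 to 2.76 in H2-M3, a heavy chain that shows formylated peptides. Library 4 was the highest of all 16 libraries in 11 of 15 class I heavy chains, 5 of 6 class I machinery genes, 7 of 7 class II chains and 2 of 2 class II machinery genes.

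Ratios to H2-Ab1 compare class II genes within a library, and those of Cd74, H2-Aa and H2-Eb1 varied less than that of Ciita. Cd74 over H2-Ab1 ran from 2.52 to 3.93 over the 16 libraries. The range was 0.754 to 1.19 for H2-Aa over H2-Ab1 and 0.582 to 0.933 for H2-Eb1 over H2-Ab1. In WT HFD library 4 these ratios were 2.77, 0.896 and 0.808. The ratio of Ciita to H2-Ab1 was 0.0911 to 0.137 in HuMgat2 HFD livers and 0.134 to 0.267 in WT HFD livers, which overlapped. On chow it was 0.117 to 0.278 in HuMgat2 livers and 0.103 to 0.274 in WT livers, so that both genotypes covered nearly the same range. All these ratios share H2-Ab1 as their denominator.

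Markers of several immune cell types were also high in WT HFD library 4. Its 16 macrophage markers summed to 1327 CPM, against at most 505.7 CPM in the other 15 libraries. The 10 dendritic cell markers summed to 129.8 CPM there against at most 44.9 CPM. Of that sum Sirpa alone made 85.0 CPM, against at most 27.8 CPM elsewhere. Zbtb46, Cd209a and Ccr7 did not exceed their highest value in the other libraries, while Itgax, Flt3, Xcr1, Clec9a, Batf3 and Siglech did. The 10 T and NK cell markers summed to 24.4 against at most 8.35 CPM, and the 7 neutrophil markers to 33.1 against at most 4.01 CPM. Its 6 B cell markers, at 6.20 CPM, lay within the range of the other libraries, and its 9 hepatocyte markers summed to the lowest value, 50982 CPM. None of the listed markers was at 0 in all 16 libraries. The part of these cells in the class II level was not tested.

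**Figure D2:**
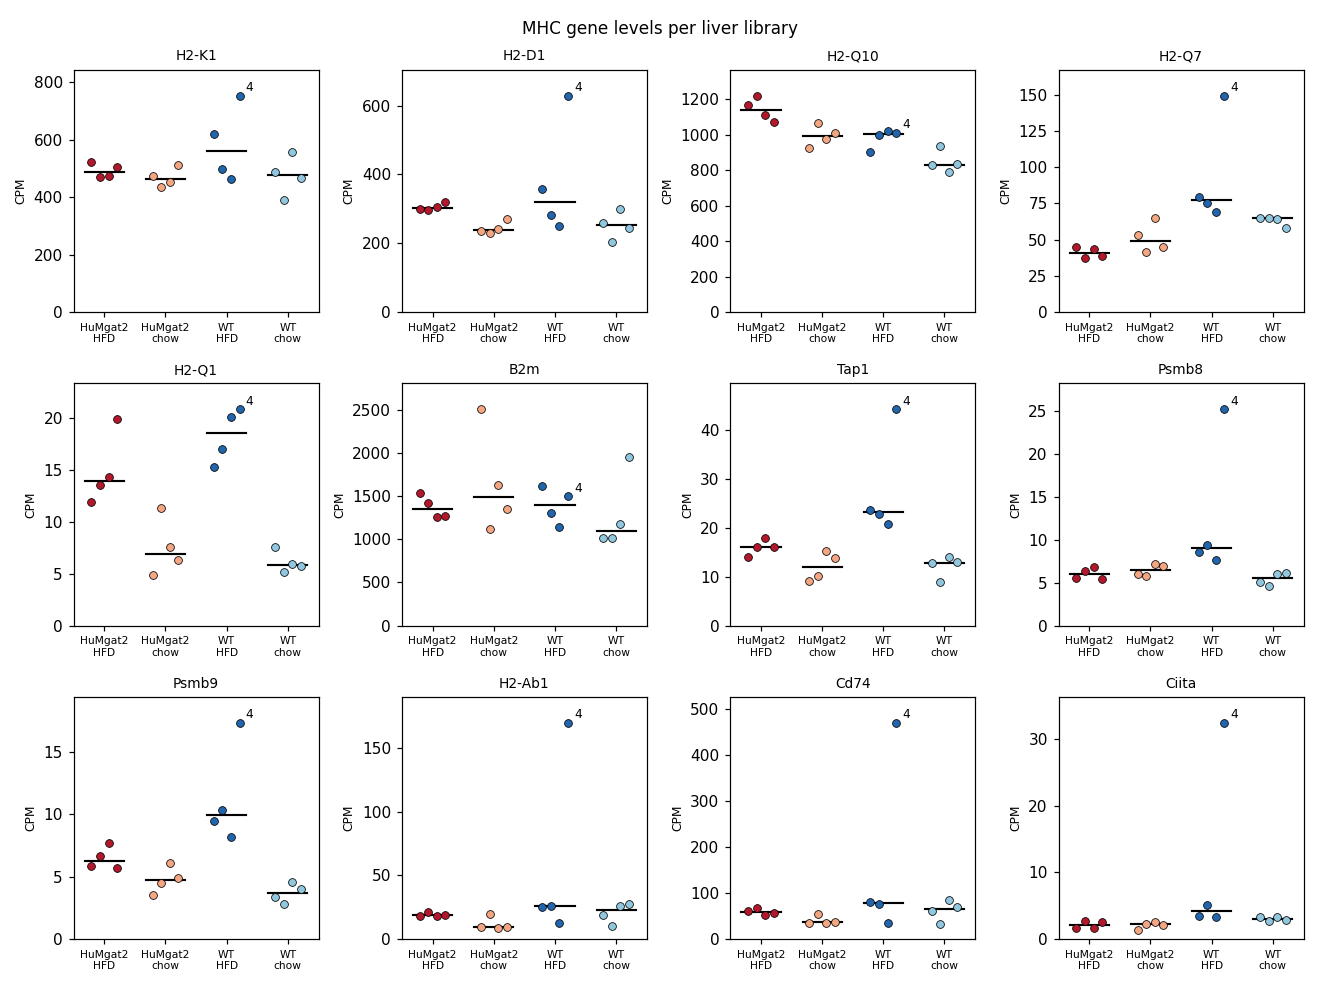
CPM of 12 members in each library, with groups from left to right HuMgat2 HFD, HuMgat2 chow, WT HFD and WT chow, 1 point per library, a line at the group median and linear axes from 0. H2-Ab1, Cd74 and Ciita have 1 WT HFD point (library 4) far above the rest, whereas Tap1 and Psmb9 have all 4 WT HFD points above all 4 WT chow points.

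The diet comparison in WT asked which of these genes differed after 16 weeks on HFD. The peptide-supply genes of class I and several nonclassical heavy chains rose, with H2-Q1 and Psmb9 changing about 3-fold, while the classical heavy chains and B2m were not called. Of the 30 members, 9 rose against 8.37% of all tested genes, and 1 fell against 6.74%. By class, 4 of 15 heavy chains rose and 1 fell. Further, 4 of 6 class I machinery genes rose, and of the class II genes 1 of 9 (Ciita) rose. When WT HFD library 4 was left out, 6 members rose and 1 fell, against 7.69% and 7.01% of genes. H2-Q1, H2-Q6, H2-T22, Tap1, Psmb8 and Psmb9 remained higher and H2-K2 lower, and H2-T10, Tap2 and Ciita were no longer called. With only the 2 WT groups in the fit, 4 members were called higher, against 3.98% of the genes tested there.

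Tap1 stood at 13.9, 16.1, 17.9 and 16.0 CPM in HuMgat2 HFD livers and 9.04, 10.1, 15.3 and 13.7 CPM in HuMgat2 chow livers. For Tap1, WT livers gave 23.6, 22.7, 20.7 and 44.2 CPM on HFD and 12.8, 8.88, 14.1 and 13.0 CPM on chow. In Tap1 all 4 WT HFD livers lay above the other 12. Psmb9 was at 5.86, 6.64, 7.65 and 5.65 CPM in HuMgat2 HFD livers and 3.55, 4.52, 6.12 and 4.92 CPM in HuMgat2 chow livers. For Psmb9, WT livers gave 9.48, 10.3, 8.18 and 17.3 CPM on HFD and 3.35, 2.78, 4.53 and 4.00 CPM on chow. In Psmb9, too, the WT HFD livers lay above the other 12. Psmb8 had 5.58, 6.37, 6.89 and 5.38 CPM in HuMgat2 HFD livers and 6.00, 5.77, 7.20 and 6.98 CPM in HuMgat2 chow livers. For Psmb8, WT livers gave 8.60, 9.43, 7.70 and 25.3 CPM on HFD and 5.06, 4.58, 6.03 and 6.13 CPM on chow. These 3 genes encode a transporter subunit and both immunoproteasome subunits of the list, and all 4 WT HFD livers lay above all 4 WT chow livers. HuMgat2 HFD livers overlapped HuMgat2 chow livers, though in Tap1 and Psmb9 the ranges touched only through HuMgat2 chow library 15. Tap1 was 2.27-fold higher in WT on HFD (log2 1.18 ± 0.22 SE, adjusted p = 0.00248), Psmb9 3.06-fold higher (log2 1.61 ± 0.23 SE, adjusted p = 0.000335) and Psmb8 2.30-fold higher (log2 1.20 ± 0.29 SE, adjusted p = 0.0112). With library 4 left out the log2 changes were 0.88, 1.35 and 0.65, with adjusted p = 0.00214, 0.000153 and 0.00475. Tap2 stood at 13.7, 13.5, 15.0 and 13.2 CPM in HuMgat2 HFD livers and 13.2, 11.7, 12.9 and 12.2 CPM in HuMgat2 chow livers. For Tap2, WT livers gave 13.4, 13.8, 12.7 and 27.5 CPM on HFD and 10.8, 8.51, 12.3 and 10.8 CPM on chow. Tap2, the partner of Tap1, was 1.57-fold higher in WT on HFD (log2 0.65 ± 0.20 SE, adjusted p = 0.033), but its call ended without WT HFD library 4 or WT chow library 5, 6 or 8 (adjusted p 0.0602 to 0.101).

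Although Tap1 and Psmb9 start from the same stretch of DNA, their ratio was not constant. Tap1 over Psmb9 was 2.34 to 2.83 in HuMgat2 HFD livers, 2.23 to 2.79 in HuMgat2 chow livers, 2.19 to 2.55 in WT HFD livers and 3.10 to 3.80 in WT chow livers. WT chow thus lay above the other 3 groups without overlap. The ratio of Psmb8 to Psmb9 was 0.900 to 0.960 in HuMgat2 HFD livers and 1.18 to 1.69 in HuMgat2 chow livers, and 0.907 to 1.46 in WT HFD livers against 1.33 to 1.65 in WT chow livers. The highest WT HFD value, 1.46, was that of library 4, and the other HFD libraries of both genotypes were below every chow library. In the Ensembl annotation used for counting, unlike at the RefSeq starts above, Tap1 (from 34406527) and Psmb9 (up to 34406738) overlap. Read pairs that fall on both are not counted.

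H2-Q1 stood at 11.9, 13.5, 14.2 and 19.9 CPM in HuMgat2 HFD livers and 4.91, 11.3, 7.57 and 6.27 CPM in HuMgat2 chow livers. For H2-Q1, WT livers gave 15.3, 17.0, 20.1 and 20.8 CPM on HFD and 7.51, 5.14, 5.94 and 5.68 CPM on chow. In H2-Q1 every HFD liver lay above every chow liver, in both genotypes. H2-Q6 was at 18.2, 18.2, 18.5 and 20.3 CPM in HuMgat2 HFD livers and 13.8, 14.1, 15.6 and 14.7 CPM in HuMgat2 chow livers. For H2-Q6, WT livers gave 30.7, 27.5, 25.8 and 47.5 CPM on HFD and 20.1, 15.5, 21.7 and 16.2 CPM on chow. For H2-Q6 the WT HFD livers lay above all others. H2-Q7 had 45.2, 37.3, 43.5 and 38.7 CPM in HuMgat2 HFD livers and 53.1, 41.1, 64.9 and 45.2 CPM in HuMgat2 chow livers. For H2-Q7, WT livers gave 79.8, 75.3, 68.9 and 149.5 CPM on HFD and 65.1, 64.9, 64.5 and 58.4 CPM on chow. H2-Q1, H2-Q6 and H2-Q7 are heavy chains of the Q region, and in each all WT HFD livers lay above all WT chow livers. H2-Q1 was 3.01-fold higher in WT on HFD (log2 1.59 ± 0.22 SE, adjusted p = 0.000286) and H2-Q6 1.78-fold higher (log2 0.83 ± 0.16 SE, adjusted p = 0.00259), while H2-Q7 was not called (log2 0.56 ± 0.20 SE, adjusted p = 0.0655). H2-T22 stood at 38.0, 37.2, 40.0 and 40.6 CPM in HuMgat2 HFD livers and 36.3, 40.0, 40.0 and 43.3 CPM in HuMgat2 chow livers. For H2-T22, WT livers gave 56.2, 47.9, 44.6 and 86.6 CPM on HFD and 37.4, 33.4, 40.6 and 33.8 CPM on chow. WT HFD livers again lay above all others in H2-T22. H2-T10 measured 5.86, 4.51, 6.76 and 5.51 CPM in HuMgat2 HFD livers and 4.33, 5.12, 5.05 and 5.10 CPM in HuMgat2 chow livers. For H2-T10, WT livers gave 6.45, 6.38, 5.87 and 10.2 CPM on HFD and 5.72, 3.42, 4.94 and 3.91 CPM on chow. H2-T22 and H2-T10, the heavy chains known as ligands of gamma delta T cells, were 1.62-fold higher (log2 0.69 ± 0.15 SE, adjusted p = 0.00717) and 1.59-fold higher (log2 0.67 ± 0.19 SE, adjusted p = 0.0279) in WT on HFD, again without overlap. The call of H2-T10 ended without WT HFD library 4 (adjusted p = 0.073) or WT chow library 6 or 8 (0.0914 and 0.074).

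Counts within this family can be shared. Of the distinct 50-base words in the transcripts of H2-T22 and H2-T10 (GENCODE M21), 53.5% and 50.4% also occur in another gene, mostly in each other, and for H2-Q5, H2-Q4, H2-Q6 and H2-Q7 the share was 36.4%, 36.4%, 35.0% and 26.5%. It was 9.63% for H2-K1, 12.8% for H2-D1 and 19.1% for H2-Q10, and 0% for B2m, H2-Ab1, H2-Eb1, H2-Ob and Cd74. Outside the class I heavy chains the largest shares were 25.9% for H2-DMb2, 23.2% for Tapbp, 22.7% for H2-DMb1, 11.9% for Psmb8 and 11.6% for Tap2. Read pairs that fit several places equally well were not counted. Levels of genes with shared words, among them the Q and T genes, are therefore uncertain. The share of words does not measure by how much.

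H2-K2 stood at 4.60, 4.03, 3.70 and 4.39 CPM in HuMgat2 HFD livers and 3.81, 3.11, 3.65 and 3.04 CPM in HuMgat2 chow livers. For H2-K2, WT livers gave 2.64, 2.50, 3.20 and 3.34 CPM on HFD and 4.91, 5.18, 2.99 and 4.30 CPM on chow. H2-K2, a heavy chain gene near H2-K1, was the only member that fell in this comparison. It was 1.49-fold lower in WT on HFD (log2 -0.58 ± 0.17 SE, adjusted p = 0.0335), though WT chow library 7 lay within the range of the WT HFD livers. Its call ended without WT HFD library 1 or 2 or WT chow library 5, 6 or 8 (adjusted p 0.0601 to 0.0951). Ciita was 3.52-fold higher in WT on HFD (log2 1.82 ± 0.57 SE, adjusted p = 0.0417), a call that rested on WT HFD library 4, without which the value was log2 0.37 ± 0.23 SE, adjusted p = 0.307. It also ended without any 1 of the 4 WT chow libraries, any HuMgat2 HFD library, or HuMgat2 chow library 15 or 16 (adjusted p 0.0509 to 0.0943). DESeq2 gave no adjusted p for Ciita in this comparison.

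H2-K1 stood at 522, 469, 474 and 503 CPM in HuMgat2 HFD livers and 472, 435, 451 and 512 CPM in HuMgat2 chow livers. For H2-K1, WT livers gave 620.1, 499, 463 and 754 CPM on HFD and 489, 389, 556 and 467 CPM on chow. H2-K1 overlapped between all groups. H2-D1 had 299, 296, 305 and 319 CPM in HuMgat2 HFD livers and 236, 230.2, 239.9 and 270.5 CPM in HuMgat2 chow livers. For H2-D1, WT livers gave 357, 281, 251 and 629 CPM on HFD and 259, 203, 299 and 244 CPM on chow. In H2-D1 the HuMgat2 HFD livers lay above the HuMgat2 chow livers. H2-Q10 was at 1165, 1219.5, 1111 and 1071 CPM in HuMgat2 HFD livers and 926, 1066, 975 and 1008 CPM in HuMgat2 chow livers. For H2-Q10, WT livers gave 905, 998, 1021 and 1010.2 CPM on HFD and 829, 934, 791 and 834 CPM on chow. The 3 most abundant heavy chains overlapped between WT HFD and WT chow livers and were not called. H2-K1 stood at log2 0.30 ± 0.15 SE, adjusted p = 0.187, H2-D1 at log2 0.59 ± 0.21 SE, adjusted p = 0.07 and H2-Q10 at log2 0.22 ± 0.11 SE, adjusted p = 0.198. B2m stood at 1539.7, 1418, 1257 and 1272 CPM in HuMgat2 HFD livers and 2507, 1122, 1626 and 1347 CPM in HuMgat2 chow livers. For B2m, WT livers gave 1619, 1299.6, 1141 and 1496 CPM on HFD and 1018, 1011, 1181 and 1958 CPM on chow. B2m overlapped between all groups, with single high livers in HuMgat2 chow (library 13) and WT chow (library 8), and its WT diet change was log2 0.10 ± 0.24 SE, adjusted p = 0.827. The heavy chains H2-Q4, H2-Q5, H2-T23, H2-T24, H2-T-ps and H2-M3 had log2 changes of 0.28 to 0.76 and adjusted p of 0.0547 to 0.414 in WT, and Tapbp stood at log2 0.41 ± 0.25 SE, adjusted p = 0.284.

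The class II chains were not called in WT with or without library 4. Their median log2 change was 1.46 with it and 0.06 without it, beside 0.03 and 0.02 over all tested genes. With all libraries H2-Aa stood at log2 1.44 ± 0.57 SE, adjusted p = 0.0992, H2-Ab1 at log2 1.48 ± 0.59 SE, adjusted p = 0.101, H2-Eb1 at log2 1.50 ± 0.63 SE, adjusted p = 0.12 and Cd74 at log2 1.43 ± 0.55 SE, adjusted p = 0.0914. Without library 4, H2-Aa, H2-Ab1 and Cd74 had log2 changes of 0.06, 0.04 and 0.07 and H2-Eb1 was on the other side of 0, at -0.10. The edgeR test gave 0 of 7 chains at adjusted p below 0.05, 5 higher at an unadjusted p below 0.05, and DESeq2 called 1 higher. Leaving out WT HFD library 3, the lowest in class II of its group, had the opposite effect to leaving out library 4: 18 members rose, against 8.1% of all tested genes, among them 5 of 7 class II chains, Cd74 and Ciita.

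For the class I genes the median log2 change in WT was 0.59 over the 15 heavy chains and 0.92 over the 6 machinery genes, and without library 4 it was 0.28 and 0.49. Beside the marker counts that follow, 8.37% of all tested genes rose and 6.74% fell (7.69% and 7.01% without library 4). Of the macrophage markers, 9 of 15 tested rose (5 of 15 without library 4), and their sum was 315 to 1327 CPM in WT HFD livers and 197 to 342 CPM in WT chow livers. Of the dendritic cell markers 4 of 7 rose (1 of 7 without library 4), with sums of 37.0 to 129.8 CPM in WT HFD livers and 25.6 to 30.6 CPM in WT chow livers. Cd4 and Nkg7 rose among the 3 tested T and NK cell markers (Cd4 alone without library 4), with sums of 4.54 to 24.4 CPM in WT HFD and 2.82 to 4.10 CPM in WT chow livers. Of the 9 hepatocyte markers 1 fell, with sums of 50982 to 81294 CPM in WT HFD livers and 89688 to 104704 CPM in WT chow livers. The part of these cells in the class I changes was not tested.

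**Figure D3:**
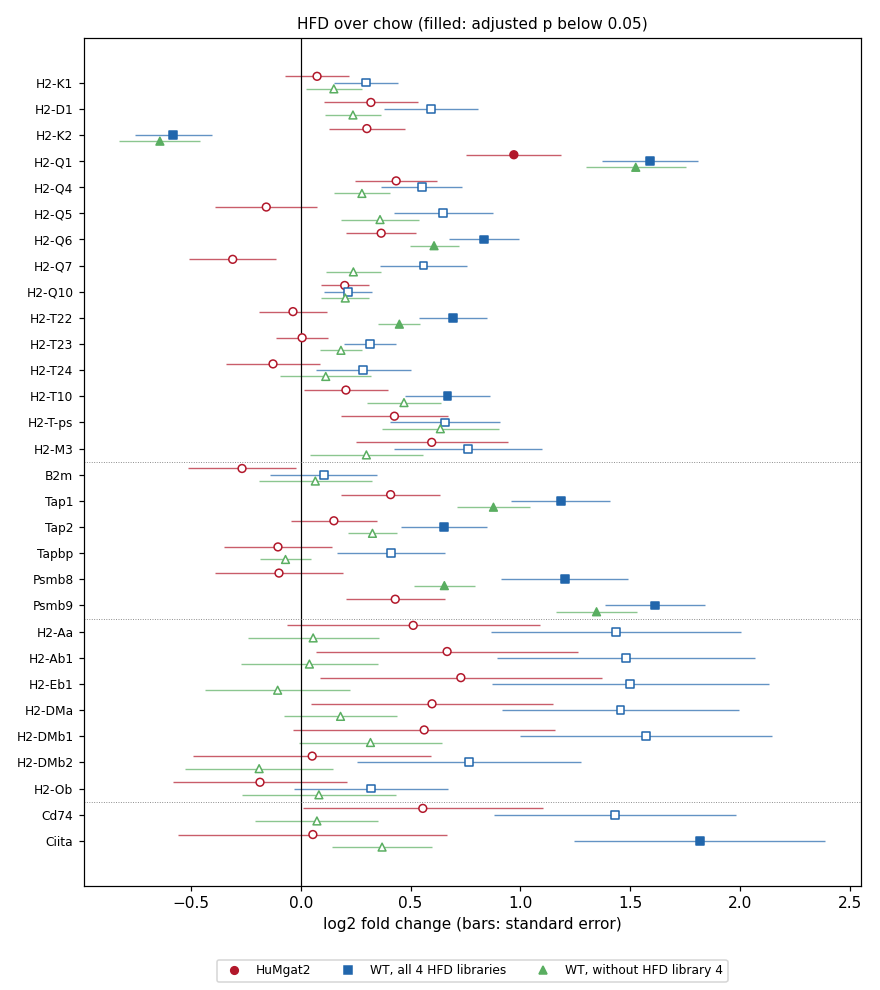
Log2 change on HFD over chow of the 30 reported members in HuMgat2 (circles), in WT with all libraries (squares) and in WT without HFD library 4 (triangles), with standard error bars and filled symbols where the adjusted p was below 0.05. Dotted lines separate class I heavy chains, class I machinery, class II chains and class II machinery. The WT class II squares lie to the right of their triangles, which sit near 0, while Tap1, Psmb8, Psmb9, H2-Q1, H2-Q6 and H2-T22 stay filled in both.

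In the fit of all 16 libraries, a single member was called between HFD and chow in HuMgat2 livers. H2-Q1 was 1.96-fold higher on HFD (log2 0.97 ± 0.22 SE, adjusted p = 0.0065), with all 4 HuMgat2 HFD livers above all 4 HuMgat2 chow livers. That is 1 of 30 members higher against 7.56% of all tested genes, and 0 lower against 6.4%. By edgeR, 3 members were higher and 0 lower at an unadjusted p below 0.05, and DESeq2 called 1 higher and 0 lower. With only the 2 HuMgat2 groups in the fit, 7 members were called higher, against 9.9% of the genes tested there. None was lower, against 7.93%. The same kind of fit in WT called 4 higher, against 3.98%, so the count of called members depended on which libraries shared the fit. In the fit that left out WT HFD library 4, which is in neither group of this comparison, 3 rose against 10.7% of all tested genes: H2-Q1, H2-Q4 (log2 0.44, adjusted p = 0.0172) and H2-Q6 (log2 0.37, adjusted p = 0.0212). Tap1 was at log2 0.41 ± 0.22 SE, adjusted p = 0.254, Psmb9 at log2 0.43 ± 0.23 SE, adjusted p = 0.232 and Psmb8 at log2 -0.10 ± 0.29 SE, adjusted p = 0.865. The median log2 change was 0.21 over the 15 heavy chains, 0.03 over the 6 class I machinery genes and 0.56 over the 7 class II chains, beside -0.01 over all tested genes. H2-Ab1 was at log2 0.67 ± 0.60 SE, adjusted p = 0.514 and Cd74 at log2 0.56 ± 0.55 SE, adjusted p = 0.558, and in both HuMgat2 chow library 14 lay within the HFD range while the other 3 chow livers lay below every HFD liver. With WT HFD library 4 left out, H2-Ab1 was at log2 0.66 ± 0.30 SE, adjusted p = 0.132. Cd74 was then at log2 0.56 ± 0.26 SE, adjusted p = 0.155. The 16 macrophage markers summed to 333 to 404 CPM in HuMgat2 HFD livers and 240 to 307 CPM in HuMgat2 chow livers, without overlap, with 2 of 15 higher (Trem2 and Gpnmb; 6 of 15 without WT HFD library 4). The 10 dendritic cell markers summed to 38.4 to 42.4 CPM in HuMgat2 HFD livers and 25.8 to 30.2 CPM in HuMgat2 chow livers, also without overlap, with 0 of 7 called (2 higher without that library). Of the 9 hepatocyte markers 4 fell (Serpina1c, Cps1, Tat and Hnf4a), with sums of 73442 to 86560 CPM in HuMgat2 HFD livers and 81302 to 109341 CPM in HuMgat2 chow livers. The part of these cells in the HuMgat2 diet values was not tested.

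On HFD, HuMgat2 livers had less of the Q-region heavy chains H2-Q5, H2-Q6 and H2-Q7 than WT livers, and less H2-T22, Tap1, Psmb8, Psmb9, H2-Ob and Ciita. These 9 of 30 members fell, against 7.56% of all tested genes, and 0 rose, against 7.21%. At an unadjusted p below 0.05 edgeR had 15 lower and 1 higher, and DESeq2 called 9 lower and 2 higher. H2-Q7 was 2.26-fold lower (log2 -1.18 ± 0.20 SE, adjusted p = 0.000987) and H2-Q6 1.74-fold lower (log2 -0.80 ± 0.16 SE, adjusted p = 0.00322). H2-Q5 stood at 4.68, 4.07, 4.93 and 3.85 CPM in HuMgat2 HFD livers and 4.52, 4.10, 6.98 and 4.03 CPM in HuMgat2 chow livers. For H2-Q5, WT livers gave 6.84, 8.89, 9.20 and 16.1 CPM on HFD and 6.85, 6.66, 6.80 and 5.59 CPM on chow. H2-Q5 was 2.31-fold lower in HuMgat2 on HFD (log2 -1.21 ± 0.23 SE, adjusted p = 0.00228), and in all 3 Q genes every HuMgat2 HFD liver lay below every WT HFD liver. In the fit without WT HFD library 4 these 3 genes were still lower, with log2 changes of -0.86 for H2-Q7, -0.57 for H2-Q6 and -0.92 for H2-Q5 (adjusted p = 0.000203, 0.00223 and 0.00223). In that fit 6 members fell, against 6.79% of all tested genes, and H2-K2 rose (log2 0.59 ± 0.18 SE, adjusted p = 0.0416), against 7.39%. With all libraries H2-K2 stood at log2 0.52 ± 0.17 SE, adjusted p = 0.0519.

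Ratios between heavy chains compare members within a library. H2-Q7 over H2-K1 was 0.0768 to 0.0917 in HuMgat2 HFD livers and 0.129 to 0.198 in WT HFD livers, without overlap. On chow it was 0.0883 to 0.144 in HuMgat2 livers and 0.116 to 0.167 in WT livers, which overlapped. H2-Q7 over H2-Q6 was 1.90 to 2.48 in HuMgat2 HFD livers, below the 2.91 to 4.15 of HuMgat2 chow livers, the 2.60 to 3.15 of WT HFD livers and the 2.97 to 4.19 of WT chow livers. H2-Q10 went the other way without being called: every HuMgat2 HFD liver lay above every WT HFD liver (log2 0.22 ± 0.11 SE, adjusted p = 0.189).

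Of the peptide-supply genes, Psmb8 was 2.07-fold lower in HuMgat2 on HFD (log2 -1.05 ± 0.29 SE, adjusted p = 0.0218), Psmb9 1.74-fold lower (log2 -0.80 ± 0.22 SE, adjusted p = 0.0225) and Tap1 1.73-fold lower (log2 -0.79 ± 0.22 SE, adjusted p = 0.0244), in each case with all 4 HuMgat2 livers below all 4 WT livers. With WT HFD library 4 left out Psmb8 was still called (log2 -0.50 ± 0.14 SE, adjusted p = 0.0234), and Tap1 (log2 -0.48 ± 0.17 SE, adjusted p = 0.0612) and Psmb9 (log2 -0.53 ± 0.18 SE, adjusted p = 0.0564) were not. The calls of Tap1 and Psmb9 also ended without HuMgat2 HFD library 9, 10 or 12 (adjusted p 0.0524 to 0.0702), and that of Psmb8 without library 9 or 12 (0.0565 and 0.059). H2-T22 was 1.51-fold lower (log2 -0.59 ± 0.15 SE, adjusted p = 0.0178; log2 -0.35 ± 0.09 SE, adjusted p = 0.022 with that library left out), a call that ended without HuMgat2 HFD library 10 (adjusted p = 0.0525).

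Ciita was 4.97-fold lower in HuMgat2 on HFD (log2 -2.31 ± 0.59 SE, adjusted p = 0.0149), and without WT HFD library 4 it was 1.82-fold lower (log2 -0.87 ± 0.23 SE, adjusted p = 0.0179), with all HuMgat2 HFD livers below all WT HFD livers in both cases. DESeq2 gave no adjusted p for Ciita, so the DESeq2 counts do not cover it. H2-Ob stood at 0.488, 0.487, 0.383 and 0.538 CPM in HuMgat2 HFD livers and 0.775, 0.683, 0.483 and 0.234 CPM in HuMgat2 chow livers. For H2-Ob, WT livers gave 0.879, 1.13, 0.689 and 1.67 CPM on HFD and 0.567, 0.555, 1.13 and 1.14 CPM on chow. H2-Ob was 2.22-fold lower in HuMgat2 on HFD (log2 -1.15 ± 0.37 SE, adjusted p = 0.0457), with no overlap on HFD, but its call ended without WT HFD library 1, 2 or 4, any HuMgat2 HFD library, HuMgat2 chow library 15 or WT chow library 7 (adjusted p 0.0501 to 0.111). The other 6 class II chains and Cd74 were not called, and their ranges overlapped between HuMgat2 HFD and WT HFD livers. H2-Aa stood at log2 -1.62 ± 0.57 SE, adjusted p = 0.066, H2-Ab1 at log2 -1.60 ± 0.59 SE, adjusted p = 0.0779 and Cd74 at log2 -1.47 ± 0.55 SE, adjusted p = 0.0822, and without WT HFD library 4 their log2 differences were -0.24, -0.15 and -0.11. The median over the 7 class II chains was -1.40 with that library and -0.14 without it, beside -0.04 and -0.01 over all tested genes. Without WT HFD library 3, 15 members fell, against 6.57% of all tested genes, 5 of 7 class II chains and both class II machinery genes among them. The abundant H2-K1 (log2 -0.25 ± 0.15 SE, adjusted p = 0.266), H2-D1 (log2 -0.32 ± 0.21 SE, adjusted p = 0.329) and B2m (log2 -0.02 ± 0.24 SE, adjusted p = 0.972) were not called.

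Beside these differences, the 10 T and NK cell markers summed to 1.95 to 2.42 CPM in HuMgat2 HFD livers and 4.54 to 24.4 CPM in WT HFD livers (at most 8.35 CPM without library 4), without overlap. All 3 that were tested, Cd4, Nkg7 and Cd3e, fell with and without library 4. Beside these marker counts, 7.56% of all tested genes were lower and 7.21% higher, and without library 4 6.79% and 7.39%. The 6 B cell markers summed to 4.07 to 4.91 CPM in HuMgat2 HFD livers and 5.15 to 6.20 CPM in WT HFD livers, with 0 of 6 called. The 16 macrophage markers summed to 333 to 404 CPM in HuMgat2 HFD livers and 315 to 1327 CPM in WT HFD livers (315 to 505.7 CPM without library 4), with 2 of 15 lower (Mpeg1 and Marco) but, without library 4, 0 lower and 2 higher (Trem2 and Gpnmb). The 10 dendritic cell markers summed to 38.4 to 42.4 CPM in HuMgat2 HFD livers and 37.0 to 129.8 CPM in WT HFD livers, with 1 of 7 lower (Zbtb46) with and without library 4. Of the 9 hepatocyte markers 3 were lower with and without library 4, with sums of 73442 to 86560 CPM in HuMgat2 HFD livers and 50982 to 81294 CPM in WT HFD livers. The part of these cells in the class I and Ciita differences was not tested.

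**Figure D4:**
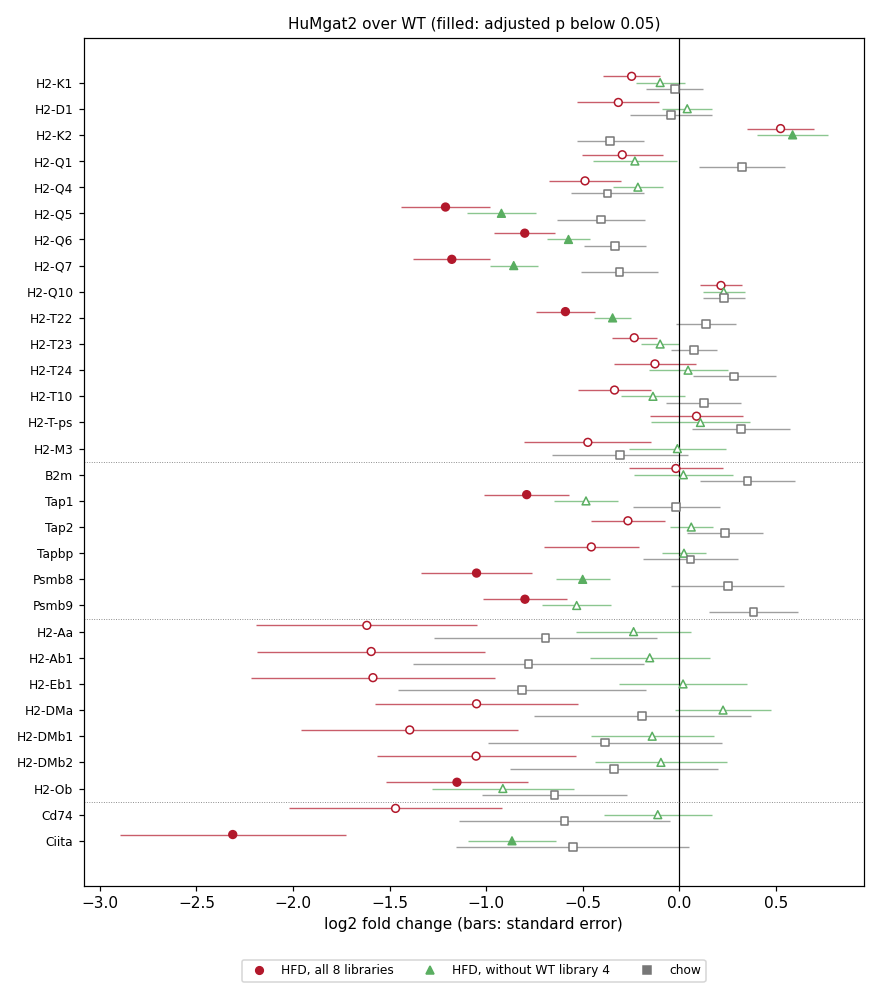
Log2 difference of HuMgat2 over WT for the 30 reported members on HFD with all 8 libraries (circles), on HFD without WT library 4 (triangles) and on chow (squares), with standard error bars and filled symbols where the adjusted p was below 0.05. No square is filled. H2-Q5, H2-Q6, H2-Q7, H2-T22, Psmb8 and Ciita are filled on HFD with and without library 4, and H2-K2 only without it.

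On chow, no member was called between the genotypes: edgeR called 0 of 30 higher and 0 lower, against 0.266% and 0.243% of all tested genes. At an unadjusted p below 0.05, 1 was higher (H2-Q10) and 0 lower, and DESeq2 called 0. H2-Q7 stood at log2 -0.31 ± 0.20 SE, adjusted p = 0.617, H2-Q5 at log2 -0.40 ± 0.23 SE, adjusted p = 0.559, Psmb9 at log2 0.38 ± 0.23 SE, adjusted p = 0.589 and H2-Ab1 at log2 -0.78 ± 0.60 SE, adjusted p = 0.695. The median was -0.02 over the heavy chains, 0.24 over the class I machinery and -0.65 over the class II chains, beside 0.0044 over all tested genes. All 7 class II chains, Cd74 and Ciita had negative values, and in Ciita all 4 HuMgat2 chow livers lay below all 4 WT chow livers (log2 -0.55 ± 0.60 SE, adjusted p = 0.804). These standard errors come from the fit of all 4 groups, so the spread of WT HFD library 4 enters them too. With that library left out, Ciita was at log2 -0.55 ± 0.22 SE, adjusted p = 0.277. H2-Ab1 was then at log2 -0.78 ± 0.30 SE, adjusted p = 0.245.

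The difference in diet effect between the genotypes was tested directly. The diet difference of Psmb9 was smaller in HuMgat2 than in WT (interaction log2 -1.18 ± 0.32 SE, adjusted p = 0.0424) and H2-K2 differed the other way (log2 0.88 ± 0.24 SE, adjusted p = 0.0481), so that 1 of 30 members was lower, against 2.26% of all tested genes, and 1 was higher, against 2.61%. Neither call was firm: the adjusted p of Psmb9 lay above 0.05 in 9 of the 16 fits that left out 1 library (0.0545 to 0.0973), and that of H2-K2 in 14 of them. Leaving out WT HFD library 4, Psmb9 (log2 -0.92 ± 0.25 SE, adjusted p = 0.0384), Psmb8 (log2 -0.75 ± 0.19 SE, adjusted p = 0.0264) and H2-T22 (log2 -0.48 ± 0.13 SE, adjusted p = 0.0332) were lower and H2-K2 (log2 0.94 ± 0.25 SE, adjusted p = 0.0304) higher, against 3% and 3.4% of all tested genes. With all libraries H2-Q7 stood at log2 -0.87 ± 0.28 SE, adjusted p = 0.0904, Tap1 at log2 -0.77 ± 0.32 SE, adjusted p = 0.193, Psmb8 at log2 -1.30 ± 0.41 SE, adjusted p = 0.0823 and H2-Ab1 at log2 -0.81 ± 0.83 SE, adjusted p = 0.655. The median of the 7 class II chains was -0.81 with library 4 and 0.42 without it, so the sign of their interaction rested on that library. H2-Q1, the member called in both genotypes, was not called in this test (log2 -0.62 ± 0.31 SE, adjusted p = 0.299).

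Among 12 further genes of the class I peptide pathway, Ubd, a ubiquitin-like modifier, rose in both diet comparisons. That was 1 of 12 in each, near the share of all tested genes, 7.56% in HuMgat2 and 8.37% in WT. Ubd was 15.1-fold higher, log2 3.91, adjusted p = 0.0413 in HuMgat2 and 23.6-fold higher, log2 4.56, adjusted p = 0.00726 in WT (log2 2.76, adjusted p = 0.0108 without library 4), and 0 of the list fell. Ubd levels were low, with 9.93 CPM in WT HFD library 4 and at most 1.59 CPM in the other 15 libraries, so these folds compare small values. In HuMgat2 against WT on HFD 3 of 12 fell, against 7.56% of all tested genes. Among them were Nlrc5, the class I transactivator (2.13-fold lower, log2 -1.09, adjusted p = 0.00878), and Irf2, an interferon regulatory factor (1.64-fold lower, log2 -0.71, adjusted p = 0.0142). The last of the 3 was Psmb10, the remaining inducible proteasome subunit (1.81-fold lower, log2 -0.86, adjusted p = 0.0446). With WT HFD library 4 left out, Nlrc5 (log2 -0.70, adjusted p = 0.0118) and Irf2 were still called and Psmb10 was not (log2 -0.38, adjusted p = 0.135), and Tapbpl, a relative of tapasin, was higher (log2 0.38, adjusted p = 0.0289).

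Of 14 tested genes of the class II pathway, 4 rose and 1 fell in WT on HFD, against 8.37% and 6.74% of all tested genes. Among them were Marchf1, which marks class II molecules for removal (2.82-fold higher, log2 1.50, adjusted p = 0.0155), and the co-stimulator Cd86 (2.07-fold higher, log2 1.05, adjusted p = 0.034). The others were the lysosomal thiol reductase Ifi30 (2.45-fold higher, log2 1.29, adjusted p = 0.0353) and the regulator Irf8 (2.61-fold higher, log2 1.38, adjusted p = 0.0409), with Rfxap, a subunit of the X box binding complex, lower (1.39-fold lower, log2 -0.47, adjusted p = 0.0425). Without library 4, 1 of 14 rose (Marchf1) and 0 fell, against 7.69% and 7.01% of all tested genes. On HFD against chow in HuMgat2, the protease Ctsd (1.51-fold higher, log2 0.60, adjusted p = 0.00415) and Cd86 (2.10-fold higher, log2 1.07, adjusted p = 0.0374) rose. These were 2 of 14, against 7.56% of all tested genes. Ctsd was also higher in HuMgat2 than in WT on HFD (1.30-fold higher, log2 0.38, adjusted p = 0.0499), 1 of 14 against 7.21% of all tested genes. Of 14 tested genes of interferon gamma signalling, 4 rose in WT on HFD, against 8.37% of all tested genes. Among them were Gbp7 (2.21-fold higher, log2 1.14, adjusted p = 0.0132) and Gbp3 (3.31-fold higher, log2 1.73, adjusted p = 0.0392), which are guanylate-binding proteins, and the receptor subunit Ifngr2 (1.45-fold higher, log2 0.54, adjusted p = 0.0226). Without library 4, 2 of the 14, Gbp7 and Ifngr2, rose, against 7.69% of all tested genes. On HFD against chow in HuMgat2, Ifngr2 alone rose (1.61-fold higher, log2 0.69, adjusted p = 0.0047), 1 of 14 and near the 7.56% of all tested genes. In HuMgat2 against WT on HFD, the chemokine Cxcl9 was the 1 gene of this list that fell (5.29-fold lower, log2 -2.40, adjusted p = 0.0437), near the 7.56% of all tested genes. Without library 4 it was at log2 -0.33, adjusted p = 0.616, 0 of the list were lower and Ifngr2 was higher. The diet comparison in HuMgat2, with WT HFD library 4 left out, had 2 higher and 1 lower in the class I list (Ubd and Tapbpl, and Irf1), 3 higher in the class II list (Ctsd, Cd86 and Ifi30) and 2 higher in the interferon list (Ifngr2 and Cxcl10). Of all tested genes, 10.7% were higher and 8.58% lower in that fit. On chow and in the interaction, edgeR called 0 genes of the 3 lists, except that Ctsd was higher in the interaction without WT HFD library 4. Of all tested genes, 0.266% were higher and 0.243% lower on chow, and 2.61% and 2.26% in the interaction. At an unadjusted p below 0.05, 1 of the class I list was higher on chow. In the interaction at that p, 0 were higher and 4 lower in the class I list, 2 higher and 2 lower in the class II list, and 0 higher and 1 lower in the interferon list. DESeq2 called 0 on chow and 1 lower, of the class I list, in the interaction.

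Of the members below the minimum, H2-Bl, a class I heavy chain gene singled out after its values were seen, was tested and called. H2-Bl stood at 0.244, 0.133, 0.553 and 0.269 CPM in HuMgat2 HFD livers and 0.0646, 0.342, 0.107 and 0.187 CPM in HuMgat2 chow livers. For H2-Bl, WT livers gave 1.17, 1.59, 1.17 and 0.556 CPM on HFD and 0.189, 0.0925, 0.227 and 0.148 CPM on chow. It was 6.80-fold higher in WT on HFD (log2 2.77 ± 0.46 SE, adjusted p = 0.00106) and, on HFD, 3.78-fold lower in HuMgat2 (log2 -1.92 ± 0.42 SE, adjusted p = 0.00578). All 4 WT HFD livers lay above all chow livers of both genotypes, WT HFD library 4 was the lowest of its group for this gene, and at these levels the counts are few. H2-Ke6, an enzyme gene of the same region, was tested and not called in any comparison (adjusted p 0.565 to 0.989).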

How the data were processed

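Liver RNA was profiled in 64 deposited records, 4 per library, which were read as 16 libraries in 4 groups of 4. The authors deposited raw counts of read pairs per gene name, made with featureCounts 2.0.1 on GRCm39 with Ensembl annotation 103, per the file headers, after alignment with STAR 2.7, per the submitters' processing notes, which also name DESeq2 1.26.0. Per the file headers, no strand option and no option for multiply mapped pairs was set, so antisense partners cannot be told apart and pairs shared by near-identical genes were left out.

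The counts were fitted with edgeR 4.0.16 in R 4.3.3: TMM scaling, its default filter on low counts, 1 quasi-likelihood fit over all 4 groups, and Benjamini-Hochberg adjustment over 17318 genes with a threshold of 0.05. Standard errors of log2 changes were calculated back from the test, as the absolute log2 change over the square root of its F statistic. DESeq2 1.42.0, other filters, scalings and sample sets, and leaving out each library were alternatives. Levels are CPM after TMM scaling, and RPKM divides by the exon length in the files. Libraries held 12422647 to 25812129 counts.

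The members and gene lists were chosen with earlier results of these data known. Members with a mean CPM of at least 0.5 are accounted for, with every library's value for members fixed by role and abundance and for each member called. List genes are named where called, at most 4 per list and comparison, except Rfxap, named after its values were seen, and 1 called gene that is not reported here. Genes called only without WT HFD library 4, and the single dendritic cell markers given for that library, were named after their values were seen. The labels do not say that libraries came from separate mice, so p-values measure only the spread between these libraries.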

Additional observations from a re-analysis of the deposited data

Results flagged for a closer look

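In 16 of 84 group and member combinations, 1 library stood apart from the other 3 of its group by Dixon's test, which chance alone does in about 1 in 20 groups. WT HFD library 4 accounted for 10 of them, always as the highest: Cd74 470.7 CPM, H2-Ab1 170.2 CPM, H2-Aa 152.4 CPM, H2-Q7 149.5 CPM, H2-Eb1 137.5 CPM, Tap1 44.17 CPM, Ciita 32.49 CPM, Tap2 27.49 CPM, Psmb8 25.26 CPM and H2-T10 10.17 CPM. In HuMgat2 HFD, library 12 was high in H2-Q6 (20.35 CPM). In HuMgat2 chow, library 14 was high in H2-Ab1 (19.43 CPM), library 15 was high in H2-Q5 (6.982 CPM) and library 13 was low in H2-T10 (4.326 CPM). In WT chow, library 8 was low in H2-Q7 (58.38 CPM) and in H2-Q5 (5.586 CPM).

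By edgeR's interaction test, a different diet effect between the genotypes was called in H2-K2 (0.88 on the log2 scale, HuMgat2 minus WT) and in Psmb9 (-1.18 on the log2 scale). Of all tested genes, 2.61% were called higher and 2.26% lower. Neither call was firm: of 21 alternatives, H2-K2 lost its call in 15 and Psmb9 in 9.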

How the results depend on the processing

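Over 22 single-member results and 479 values under an alternative, 400 kept their call, 79 lost it and 0 reversed. The 8 results that kept it under every alternative run were H2-Q1 in both diet comparisons, Tap1 and Psmb9 for diet in WT, H2-Q6 for diet in WT and for genotype on HFD, and H2-Q5 and H2-Q7 for genotype on HFD. With only the 2 groups compared in the fit, the members called were 4 higher and 0 lower for diet in WT (3.98% and 4.85% of all genes tested there), 7 higher for diet in HuMgat2 (9.9%), and 1 higher and 4 lower for genotype on HFD (6.6% and 5.16%). For genotype on HFD, 2 members were higher by DESeq2, 1 with DESeq2 size factors and 1 with a mean CPM of at least 1. In the interaction, 0 were higher with no filter on low counts and 4 were lower by DESeq2. In every comparison DESeq2 gave no adjusted p for Ciita. Leaving out each library in turn gave 6 to 18 higher and 0 to 1 lower for diet in WT, 1 to 3 higher for diet in HuMgat2, 0 to 1 higher and 5 to 15 lower for genotype on HFD, and 0 to 1 higher and 0 to 4 lower in the interaction. Genotype on chow had 0 called under every alternative run. On unscaled CPM the median class I sum was 2386 in HuMgat2 HFD, 1829.6 in HuMgat2 chow and 1891 in WT chow livers, against 2171, 1934 and 1800 CPM scaled. The cause of these differences was not tested. No paired analysis was possible because library numbers do not recur between groups. Of the reported members, H2-Ob and H2-DMb2 had the fewest counts.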
